A study of Danio rerio with 8 samples.

Results

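Among 8 RNA-seq libraries of sorted zebrafish cartilage cells, the 2 that carry the replicate number 1, WT 1 and kat6a 1, stood apart from the 6 numbered 2 to 4. Their higher genes included those of the pectoral fin bud (tbx5a, sall4, hand2 and hox genes of the posterior paralog groups), of the perichondrium and fibrous matrix (col8a2, fn1b, col5a2a) and of dividing cells (top2a, mki67), together with igf2a and clic2. Lower in both were some cartilage genes (ihha, col10a1a, matn1, col9a1b) and genes of ribosome assembly, while col2a1a lay below the other 6 libraries by slightly less than the size needed for a call. The cartilage matrix list held genes on both sides, with 7 higher and 7 lower of 40 tested. That was 17.5% each way, beside 13.4% higher and 2.0% lower of all tested genes. Among the higher ones, thbs3a and thbs4a averaged under 0.5 FPKM in numbers 2 to 4 and were tested only because of their level in number 1. The same holds for most of the higher hox genes of the posterior groups. The list of fin bud genes was drawn up after these values had been seen. The split was taken from the replicate numbers in the labels because number had been seen to matter in these same FPKM values, so the differences between the sets are described here without a test. The labels give no date, clutch, sort or sequencing run behind a number.

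All 8 libraries came from Danio rerio larvae 3 days after fertilisation, kept at 28.5 degrees Celsius in E3 medium with 0.003% PTU, which blocks pigment. All carried Tg(sox10:EGFP), a reporter driven by a neural crest gene promoter, and Tg(col2a1a:mcherry), driven by the promoter of a cartilage collagen gene, and cells positive for both were sorted from whole larvae. The groups were WT (4 libraries) and kat6a-deficient (4 libraries). What the kat6a lesion is was not stated in the labels used here. The series calls the replicates biological. WT 4 took its number from its title, since its library name has 3 in that place.

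Values are FPKM, a measure of RNA level corrected for how long the transcript is and how deeply the library was sequenced, as the authors deposited them. Summed FPKM lay between 311061 and 339307 per library, and the number of fragments behind a value is unknown. An exact 0 need not mean absent RNA, since 13 of 13 mitochondrial genome genes are listed at 0 in every library. Whether a 0 in a single library is a failed estimate was not tested. Because FPKM is a share of a total, a gene can be higher in 1 set when others take less, and fewer cells of a type and less RNA per cell cannot be told apart in such bulk samples. The 10 genes with the highest mean took 12.4% and 16.1% of summed FPKM in number 1, next to 25.1% to 29.2%. The number of genes at 10 FPKM or more was 3775 and 3388 against 2677 to 3098. The targeted gene kat6a itself, which encodes a histone acetyltransferase, stood at 32.0 FPKM (WT 1) and 28.2 FPKM (kat6a 1), next to 15.2, 16.3 and 18.9 in WT 2 to 4 and 11.98, 12.4 and 9.09 in kat6a 2 to 4. It was thus higher in both libraries numbered 1 than in any other, with a difference of 1.08 ± 0.19.

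Cartilage forms from mesenchymal cells that condense, become dividing chondrocytes rich in type II collagen and aggrecan, and may then enlarge into hypertrophic chondrocytes that make type X collagen and Indian hedgehog. A fibrous cell layer, the perichondrium, surrounds the element and supplies new chondrocytes. In the larval head, cartilage comes from neural crest cells of the pharyngeal arches, whereas the skeleton of the pectoral fin, the fish counterpart of the forelimb, comes from mesoderm patterned by Tbx5 and by HoxA and HoxD genes of the posterior groups.

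For each of 11763 genes with a mean of at least 0.5 FPKM over the 8 libraries, a linear model with genotype as covariate gave the difference of number 1 minus numbers 2 to 4 on the scale log2(FPKM + 1), written below as value ± SE (2 against 6 libraries). A gene is called higher or lower when both libraries numbered 1 lie outside the range of the other 6 on the same side and the difference is at least 1. By that rule 1575 genes were higher (13.4% of those tested) and 235 lower (2.0%), with a median difference of 0.28 over all tested genes. With any size of difference, 28.5% lay apart on the high side and 6.21% on the low side. This imbalance depends on scaling. After median-ratio, upper-quartile or quantile scaling the median of all genes was -0.011, -0.046 or -0.035, the higher genes numbered 821, 772 or 789, and the lower genes 585, 644 or 630. Without WT 1 the count of lower genes was 577. Among the higher genes, 424 have an exact 0 in 1 or more of the libraries numbered 2 to 4. Another count, 272, passed the filter on low values only through number 1, with a mean under 0.5 FPKM in the other 6 libraries.

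As a share of each genotype's own list, more genes were common to both on the high side than on the low side. The high lists were also longer, so these shares do not say on which side the genotypes were more alike. Taken alone, WT 1 lay outside the range of WT 2 to 4 by at least 1 on the high side for 2283 genes (19.4% of those tested), and kat6a 1 outside that of kat6a 2 to 4 for 1903 (16.2%). The 1156 genes on both lists made up 50.6% of the WT list and 60.7% of the kat6a list, while 37 genes were higher in WT 1 and lower in kat6a 1. On the low side the lists held 423 and 680 genes (3.60% and 5.78% of those tested) and shared 124, which is 29.3% and 18.2% of each. The WT and kat6a differences use separate libraries, but the split itself was picked from both.

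**Figure D1:**
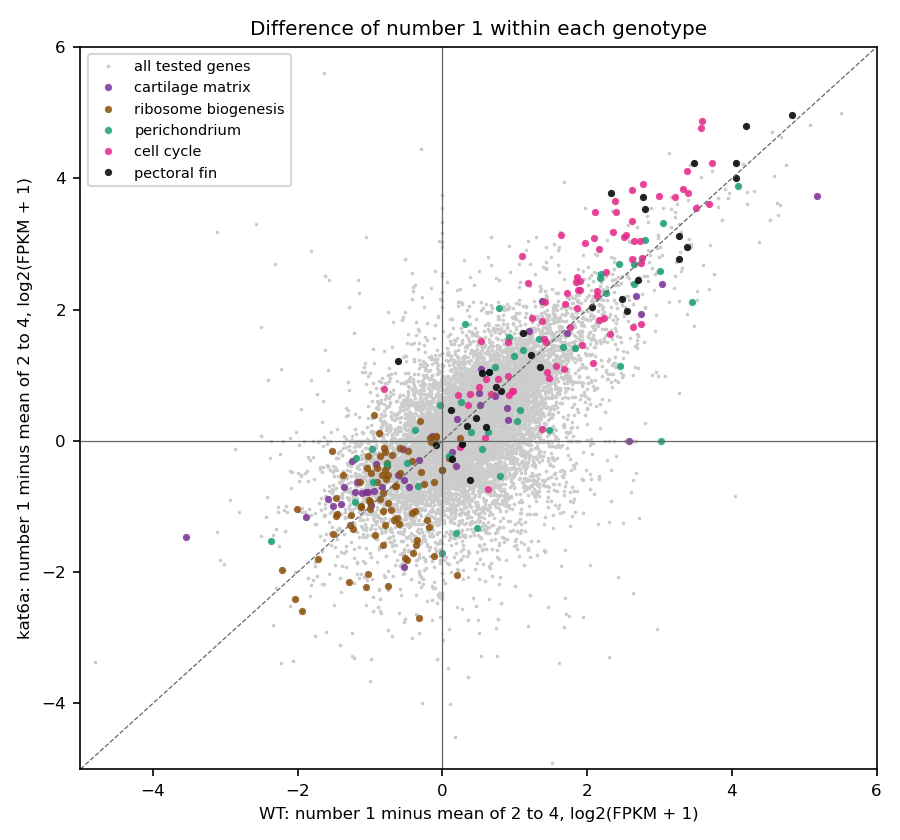
Each point is a gene: its difference of WT 1 from the mean of WT 2 to 4 (horizontal axis) and of kat6a 1 from the mean of kat6a 2 to 4 (vertical axis), both on the log2(FPKM + 1) scale, with 5 gene lists in colour and the dashed line marking equal differences. Pectoral fin and cell cycle genes reach the upper right corner, and ribosome biogenesis genes gather at the lower left. Cartilage matrix genes lie on both sides, with 7 called higher and 7 called lower. Of the higher ones, thbs3a and thbs4a passed the filter on low values only through number 1. Of the tested pectoral fin genes 24 of 31 also reach that filter on the mean of numbers 2 to 4, and of the cell cycle genes 50 of 76.

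Transcription factors of the pectoral fin bud gave some of the widest gaps between the sets. The gene tbx5a, whose product starts outgrowth of the fin bud, stood at 140.4 FPKM (WT 1) and 76.97 FPKM (kat6a 1), next to 3.53, 2.62 and 6.58 in WT 2 to 4 and 1.93, 1.90 and 0.844 in kat6a 2 to 4. The zinc finger gene sall4, which acts with Tbx5 in limb buds, stood at 96.5 FPKM (WT 1) and 61.2 FPKM (kat6a 1), next to 11.9, 9.01 and 7.11 in WT 2 to 4 and 8.05, 6.38 and 10.5 in kat6a 2 to 4. Neither gene's sets overlapped, and the differences were 4.89 ± 0.31 and 3.01 ± 0.24. The marker hand2, a basic helix-loop-helix factor of the ventral pharyngeal arches and of the posterior fin bud, stood at 89.2 FPKM (WT 1) and 74.0 FPKM (kat6a 1). It was 3.84, 3.87 and 5.66 in WT 2 to 4 and 1.24, 3.30 and 5.66 in kat6a 2 to 4, so the difference was 4.14 ± 0.36. A list of fin bud genes drawn up after these values had been seen (57 gene IDs, 31 tested) had 18 higher and 0 lower, beside the 13.4% higher of all tested genes. Of its tested genes 24 also reach the filter on the mean of numbers 2 to 4, with 11 higher and a median difference of 0.82. The others passed only through number 1, where they are high. Under the other scalings 15 or 16 of its tested genes were higher. Members called higher included mecom (111 and 78.1 FPKM against 11.9 to 18.9), the T-box gene tbx15 (19.4 and 12.4 FPKM against 1.23 to 5.54) and bmp2b, a growth factor (76.7 and 43.7 FPKM against 9.19 to 12.97). Actinodin genes of the fin fold did not follow: and1 (3.17 and 1.72 FPKM against 0.0640 to 11.5) and and2 (11.2 and 5.42 FPKM against 2.15 to 26.9) had overlapping sets. The fin markers prrx1a (20.5 and 15.0 FPKM against 12.6 to 19.0) and meis1b (25.6 and 18.1 FPKM against 11.6 to 21.7) also overlapped.

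The hox genes split by paralog group. In the HoxA and HoxD clusters (aa, ab and da), 9 of 12 genes of groups 9 to 13 passed the filter and 9 of those 9 were called higher, against a background of 13.4% of all tested genes. Most of these passed the filter only through number 1, since their levels in numbers 2 to 4 were low or listed at 0. The exceptions were hoxd9a and hoxd11a, which also reach it on the mean of numbers 2 to 4. All 9 lie in clusters ab and da. The untested genes hoxa9a, hoxa11a and hoxa13a, of cluster aa, are listed at 0 in both libraries numbered 1. Of the 11 genes of groups 9 to 13 in the other clusters, 0 reached the filter. Of 25 genes of groups 1 to 8, 12 were tested and 3 were higher, hoxd3a, hoxd4a and hoxb5a. The gene hoxa13b, of the group active in the distal limb, stood at 26.6 FPKM (WT 1) and 29.4 FPKM (kat6a 1), next to 0.225, 0.628 and 0.706 in WT 2 to 4 and 0, 0.294 and 0 in kat6a 2 to 4. Its neighbour in the cluster hoxa11b stood at 17.7 FPKM (WT 1) and 15.0 FPKM (kat6a 1), next to 0.115, 0 and 0.290 in WT 2 to 4 and 0, 0 and 0 in kat6a 2 to 4, with 4 of 6 libraries numbered 2 to 4 listed at 0. The gene hoxd9a stood at 18.3 FPKM (WT 1) and 24.6 FPKM (kat6a 1), next to 0.520, 0.721 and 1.01 in WT 2 to 4 and 0.884, 0.331 and 0 in kat6a 2 to 4. Each of these 3 genes was at least 10 FPKM in both libraries numbered 1 and near or below 1 FPKM elsewhere. Summed over group 13, the levels were 36.9 FPKM (WT 1) and 40.5 FPKM (kat6a 1), where the other 6 libraries reached 0 to 1.29. Group 2, which patterns the second arch, ran the other way in 1 genotype: its sums were 6.75 FPKM (WT 1) and 1.49 FPKM (kat6a 1), next to a range of 3.57 to 9.15.

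**Figure D2:**
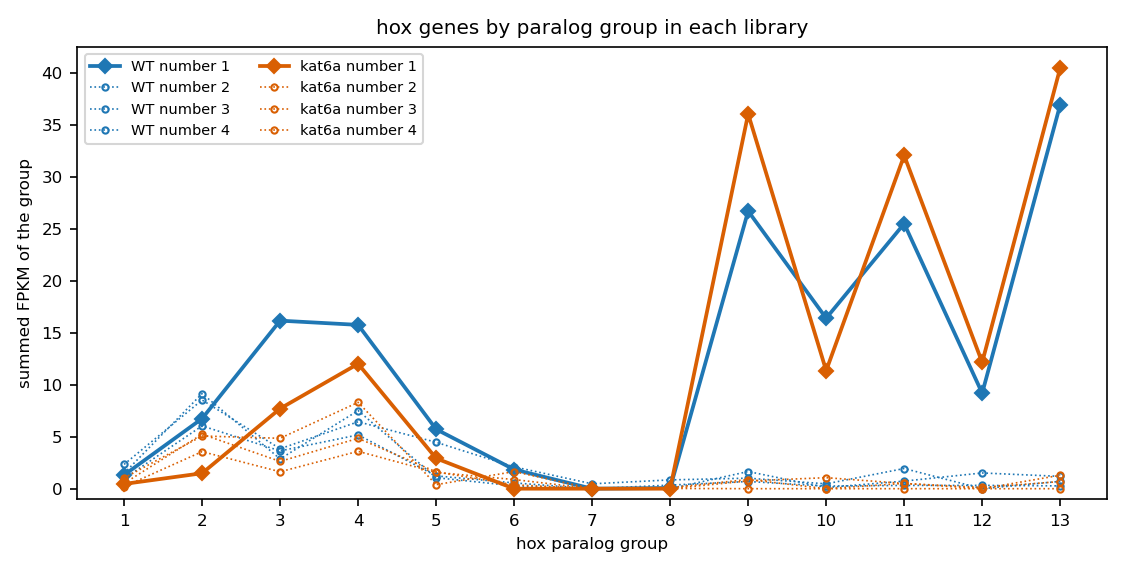
Summed FPKM of the hox genes of each paralog group (1 to 13), with 1 line per library, solid with diamonds for the libraries numbered 1 and dotted with circles for numbers 2 to 4. From group 9 to group 13 both libraries numbered 1 lie at 9.19 FPKM or more and the other 6 at 1.94 or less.

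The perichondrium list (54 of 55 genes found, 46 tested) had 20 genes higher and 2 lower. That was 43.5% and 4.35%, beside 13.4% higher and 2.0% lower of all tested genes. The list's median difference was 0.83, or 0.46 to 0.51 under the other scalings. Of its tested genes 41 also reach the filter on the mean of numbers 2 to 4, and the others passed only through number 1. The list's summed levels were 7648 FPKM (WT 1) and 5447 FPKM (kat6a 1) against 2463 to 3111. Most of the gap in that sum came from col8a2, which encodes a short-chain collagen. The gene stood at 4037 FPKM (WT 1) and 2679 FPKM (kat6a 1), next to 205, 268 and 241 in WT 2 to 4 and 134, 192 and 226 in kat6a 2 to 4. The sets were far apart, with a difference of 3.99 ± 0.19, and the gene alone took 1.24% of summed FPKM in WT 1 and 0.861% in kat6a 1. Fibronectin gene fn1b, whose product links cells to fibrous matrix, stood at 1378 FPKM (WT 1) and 605 FPKM (kat6a 1), next to 162, 164 and 189 in WT 2 to 4 and 103, 87.1 and 111 in kat6a 2 to 4. Within number 1, WT was the higher library for both genes. Also far above the range of numbers 2 to 4 was the fibrillar collagen gene col5a2a (135 and 93.8 FPKM against 6.39 to 20.1). The microfibril collagen genes col6a1 (64.1 and 37.6 FPKM against 3.16 to 12.7) and col6a2 (52.2 and 31.3 FPKM against 2.72 to 9.55) were higher. So were the proteoglycan gene aspn (25.2 and 16.02 FPKM against 0 to 3.93) and the elastin gene elnb (13.3 and 3.41 FPKM against 0 to 1.09). The lower members were col8a1a, the partner chain of col8a2 (0.747 and 1.93 FPKM against 3.92 to 15.8), and tgfbi (159.7 and 185 FPKM against 321 to 412). Widely used perichondrial and mesenchymal genes were not all higher: col1a1b (169 and 126 FPKM against 131 to 323) and pdgfra (15.5 and 19.8 FPKM against 10.1 to 18.3) overlapped. The genes postnb (7.06 and 7.78 FPKM against 7.87 to 20.8) and sparc (632 and 819 FPKM against 1019 to 1407) were apart on the low side by less than 1. Without WT 1 the list's median was 0.55.

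Most cell cycle genes were higher in number 1. Of 90 listed genes 76 were tested, and 58 were higher and 0 lower, beside the 13.4% higher of all tested genes. Under the other scalings 52 to 54 were higher. The list's summed levels were 1181 FPKM (WT 1) and 1340 FPKM (kat6a 1) against 236 to 395. Of its genes 50 reach the filter on the mean of the other 6 libraries, with a median difference of 1.72, and the rest passed only through number 1. The topoisomerase gene top2a, made in cells about to divide, stood at 32.9 FPKM (WT 1) and 53.1 FPKM (kat6a 1), next to 0.990, 3.63 and 1.40 in WT 2 to 4 and 0.412, 1.53 and 0.785 in kat6a 2 to 4. The proliferation marker mki67 stood at 24.0 FPKM (WT 1) and 41.1 FPKM (kat6a 1), next to 1.56, 3.02 and 3.69 in WT 2 to 4 and 1.35, 2.27 and 1.83 in kat6a 2 to 4. The replication clamp gene pcna stood at 93.2 FPKM (WT 1) and 98.8 FPKM (kat6a 1), next to 20.0, 33.0 and 33.1 in WT 2 to 4 and 19.2, 30.6 and 19.4 in kat6a 2 to 4. No sets overlapped for these 3 genes, and pcna, unlike the first 2, was well expressed in every library. The kinesin genes kif11 (15.4 and 26.3 FPKM against 0 to 1.02) and kif20a (9.15 and 13.9 FPKM against 0 to 1.07) and the spindle genes tpx2 (12.7 and 16.9 FPKM against 0 to 0.674) and nusap1 (13.7 and 13.5 FPKM against 0 to 0.656) were near 0 in numbers 2 to 4. The cyclin genes ccnd1 (5.98 and 12.9 FPKM against 5.95 to 14.0) and ccnb2 (7.10 and 9.19 FPKM against 2.15 to 9.54) overlapped. In 55 of the 76 tested genes the difference of number 1 was larger in kat6a than in WT, the reverse of col8a2 and fn1b. Over all tested genes the median of the kat6a difference minus the WT difference was -0.10. With 1 library numbered 1 per genotype, this does not show that the genotypes differ.

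**Figure D3:**
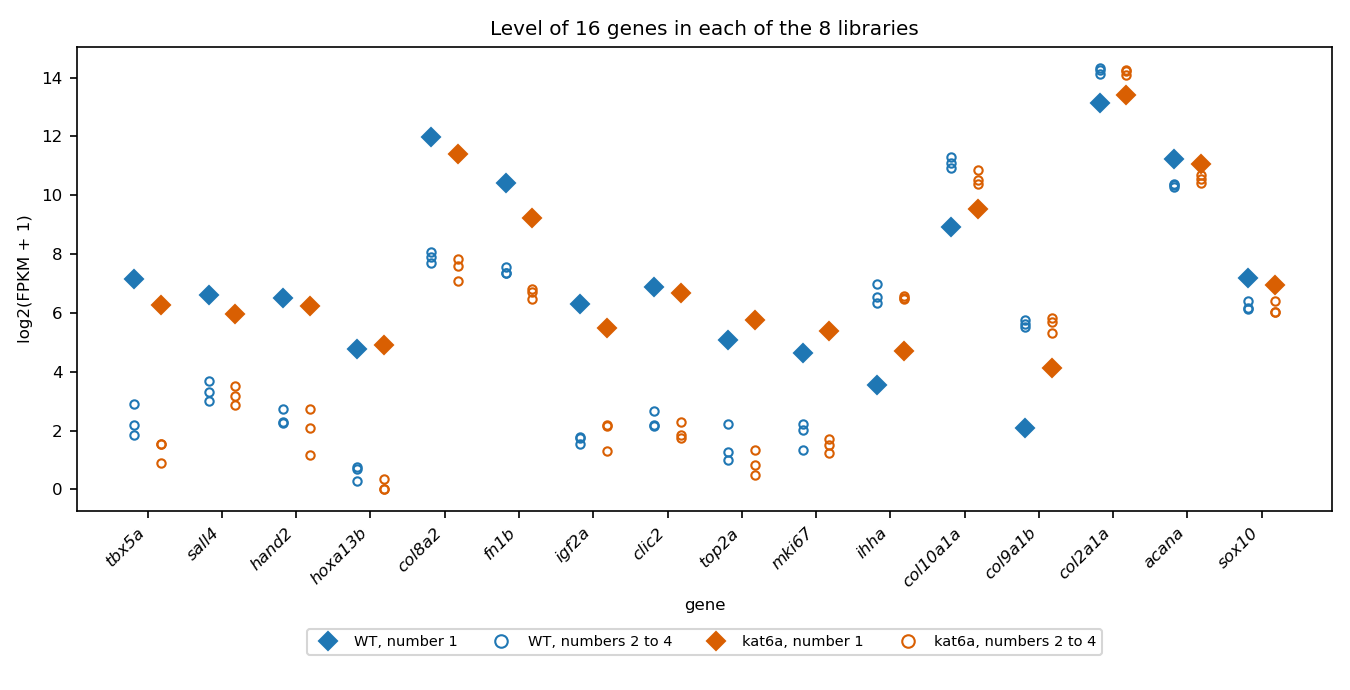
Level of 16 genes on the log2(FPKM + 1) scale, filled diamonds for number 1 and open circles for numbers 2 to 4, WT in blue and kat6a in orange. The first 10 genes are higher in both libraries numbered 1, then ihha, col10a1a, col9a1b and col2a1a are lower, and acana and sox10 are modestly higher.

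Genes of the mature cartilage matrix lay on both sides. Of the list (47 of 50 found, 40 tested), 7 were higher and 7 lower. That was 17.5% each way, beside 13.4% higher and 2.0% lower of all tested genes. Of its tested genes 36 also reach the filter on the mean of numbers 2 to 4, and the others passed only through number 1. Those others include thbs3a and thbs4a, both called higher. Of the list's genes 19 lay apart on the low side at any size, beside 6.21% of all tested genes. The median difference was -0.45, with -0.83, -0.76 and -0.092 under median-ratio, upper-quartile and quantile scaling, and 17, 19 and 8 genes lower. The list took 15.7% and 19.5% of summed FPKM in number 1, next to 27.9% to 32.1% elsewhere. The 9 genes of collagens II, IX and XI took 9.16% and 11.4% against 17.5% to 21.0%. Among them col2a1a, whose promoter drives one of the sorting reporters, stood at 8994 FPKM (WT 1) and 10783 FPKM (kat6a 1), next to 20538, 19811 and 17827 in WT 2 to 4 and 19600.5, 19199.7 and 17359.7 in kat6a 2 to 4. Its sets did not overlap, but the difference of -0.95 ± 0.12 missed the size needed for a call. The matrilin gene matn1, a cartilage matrix protein, stood at 7687 FPKM (WT 1) and 10959.7 FPKM (kat6a 1). The rest had 21593, 20317 and 19315 in WT 2 to 4 and 21682, 20806 and 21751 in kat6a 2 to 4, a difference of -1.19 ± 0.12. Also lower were col9a1b (3.27 and 16.7 FPKM against 39.3 to 55.9) and the proteoglycan gene epyc (709.7 and 1302 FPKM against 1995 to 2591). The genes CLEC3A (66.6 and 156 FPKM against 241 to 382) and thbs4b (17.5 and 18.9 FPKM against 37.8 to 57.4) were lower too, as were the matrilin genes matn3a and matn4. Higher were the link protein gene hapln1a (321 and 234 FPKM against 35.2 to 74.3) and loxl4, which encodes a collagen cross-linking enzyme (581 and 467 FPKM against 67.7 to 126). The proteoglycan gene prelp (188 and 149 FPKM against 20.8 to 40.8) was higher, as was vcanb, which encodes the versican of provisional matrix (40.4 and 37.5 FPKM against 7.99 to 21.6). The thrombospondin gene thbs3a (43.8 and 13.7 FPKM against 0 to 0.453) had the widest gap of the list. The aggrecan gene acana (2389 and 2127 FPKM against 1239.9 to 1636) was apart on the high side by 0.70 ± 0.12, opposite to col2a1a.

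Genes that mark chondrocyte enlargement were lower in number 1 for hedgehog signal and type X collagen, but not as a class. Indian hedgehog gene ihha, made by prehypertrophic chondrocytes, stood at 10.8 FPKM (WT 1) and 25.1 FPKM (kat6a 1), next to 92.7, 127 and 80.3 in WT 2 to 4 and 93.5, 90.5 and 88.6 in kat6a 2 to 4. Type X collagen gene col10a1a, the classic marker of hypertrophy, stood at 484 FPKM (WT 1) and 744 FPKM (kat6a 1), next to 1966, 2499.7 and 2205 in WT 2 to 4 and 1325, 1874 and 1470.2 in kat6a 2 to 4. Both were lowest in WT 1 and next lowest in kat6a 1, with differences of -2.44 ± 0.27 and -1.62 ± 0.24. The second Indian hedgehog gene ihhb (1.43 and 0.979 FPKM against 3.25 to 7.43) was lower too. The gene pthlha, the hormone that holds chondrocytes back from enlarging, was higher (16.5 and 10.4 FPKM against 2.22 to 8.11). Hedgehog co-receptor genes gas1a (54.0 and 46.1 FPKM against 4.101 to 10.6) and cdon (41.6 and 36.9 FPKM against 15.5 to 21.2) and the mediators gli2a (22.4 and 12.1 FPKM against 3.54 to 11.8) and gli3 (12.5 and 11.6 FPKM against 3.13 to 5.94) were higher. Of the 22 tested genes of hypertrophy and bone, 4 were higher and 3 lower. That was 18.2% and 13.6%, beside 13.4% and 2.0% of all tested genes. The list's median of 0.15 turned to between -0.27 and -0.15 under the other scalings. The bone factor sp7 (1.21 and 1.31 FPKM against 0.402 to 1.43) overlapped.

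Arch genes as a class did not part the sets. Of the pharyngeal arch list (89 of 90 found, 62 tested) 8 were higher, which is 12.9% against the 13.4% of all tested genes, and 1 was lower. The median of 0.38 was 0.10 above that of all genes, and it was 0.011 to 0.080 under the other scalings, where 3 were higher and 3 lower. The 8 higher genes included hand2, tbx15 and hoxd3a, already described. They also held barx1, which marks early arch chondrogenic cells (7.45 and 9.37 FPKM against 1.88 to 4.62), and the forkhead gene foxc1a (254 and 122 FPKM against 73.6 to 91.2). The last 3 were nr2f6a (15.4 and 13.4 FPKM against 3.26 to 7.45), msx3 (5.35 and 4.47 FPKM against 0.571 to 2.89) and pbx1a (8.05 and 6.87 FPKM against 1.74 to 5.57). The lower gene was eya2 (3.28 and 4.67 FPKM against 6.57 to 15.2). Core patterning genes overlapped, among them dlx5a (6.39 and 5.87 FPKM against 5.16 to 8.40), dlx2a (1.09 and 1.18 FPKM against 0.774 to 2.64) and hoxa2b (4.88 and 1.18 FPKM against 3.27 to 7.83). The jaw joint gene nkx3.2 lay apart on the low side by less than 1 (42.6 and 35.5 FPKM against 49.6 to 75.5). Chondrogenic factors were present in every library. The neural crest and cartilage gene sox10, whose promoter drives the other sorting reporter, stood at 144 FPKM (WT 1) and 123 FPKM (kat6a 1), next to 70.0, 71.6 and 84.1 in WT 2 to 4 and 64.4, 83.3 and 63.8 in kat6a 2 to 4. The master factor gene sox9a was 905 FPKM (WT 1) and 484 FPKM (kat6a 1), next to 440.5, 391 and 294 in WT 2 to 4 and 515, 439 and 416 in kat6a 2 to 4. The first was apart on the high side by 0.87 ± 0.15, and the second overlapped because kat6a 1 lay within the others. Of the 27 tested chondrogenic factors 10 were higher and 0 lower (7 and 1 after scaling), with sox9b (7.29 and 6.70 FPKM against 0.556 to 2.43) and the joint gene gdf5 (93.3 and 65.8 FPKM against 18.5 to 20.0) among them.

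The growth factor gene igf2a stood at 78.5 FPKM (WT 1) and 44.4 FPKM (kat6a 1). The rest had 1.94, 2.34 and 2.43 in WT 2 to 4 and 3.48, 3.52 and 1.45 in kat6a 2 to 4, a difference of 4.12 ± 0.32. Its paralog igf2b overlapped (46.3 and 43.1 FPKM against 31.3 to 44.2), and of the 11 tested genes of IGF ligands and receptors the receptor gene igf1rb (5.82 and 6.67 FPKM against 2.14 to 3.11) was the only other one called (1 gene of the list after scaling). The chloride intracellular channel gene clic2 stood at 118 FPKM (WT 1) and 100.4 FPKM (kat6a 1). The rest had 3.61, 3.47 and 5.32 in WT 2 to 4 and 2.33, 2.61 and 3.92 in kat6a 2 to 4, a difference of 4.63 ± 0.23. Both markers were thus low and even across numbers 2 to 4 of both genotypes. Clone and locus names aside, the widest gap among genes averaging at least 5 FPKM over the 8 libraries was that of fhl1b, which encodes a LIM domain protein (68.9 and 69.9 FPKM against 0 to 2.26). Next came the kinase gene nuak1a (191 and 103 FPKM against 1.62 to 5.48). Others were the chloride channel gene ano1 (36.2 and 27.5 FPKM against 0 to 1.07) and the semaphorin gene sema3bl (154 and 103 FPKM against 3.32 to 5.84). The transcription factor gene creb5b (64.0 and 41.0 FPKM against 0.578 to 2.78) and the deubiquitinase gene usp2b (25.9 and 17.5 FPKM against 0 to 2.47) followed. All the genes from fhl1b to usp2b averaged under 5 FPKM in numbers 2 to 4 and met that limit only through number 1. Of them ano1 and usp2b, at means of 0.352 and 0.412 FPKM there, were tested only because of number 1.

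Several signalling lists had more genes higher than lower, as had the tested genes as a whole (13.4% higher and 2.0% lower). The higher counts shrank under the other scalings, as did that over all tested genes (from 1575 to 821, 772 or 789). In BMP signalling 11 of 31 tested genes were higher and 0 lower (6 or 7 higher and at most 1 lower after scaling), with the antagonist gene fsta (24.7 and 20.8 FPKM against 0.0563 to 0.686) and the ligand gene gdf10a (103 and 108 FPKM against 18.2 to 25.1) among them. Of the 31 genes 30 also reach the filter on the mean of numbers 2 to 4. The gene fsta, at a mean of 0.365 FPKM there, passed only through number 1. In retinoic acid signalling 7 of 16 were higher and 0 lower (4 or 5 and 0 after scaling), led by the binding protein gene crabp2b (143 and 158 FPKM against 14.6 to 26.0) and the receptor genes rxrab (17.5 and 7.09 FPKM against 0.152 to 1.302) and rargb (95.6 and 60.3 FPKM against 20.1 to 28.1). In WNT signalling 7 of 25 were higher and 0 lower (3 or 4 and 2 after scaling), with the secreted inhibitor gene wif1 (117 and 73.6 FPKM against 6.30 to 9.83) furthest apart. In FGF signalling 5 of 18 were higher and 0 lower (2 or 3 and 0 after scaling), the target genes etv5a (34.4 and 24.9 FPKM against 2.71 to 8.76) and etv5b among them. Of the tested retinoic acid, WNT and FGF genes, 15 of 16, 23 of 25 and 17 of 18 also reach the filter in numbers 2 to 4. In hedgehog signalling 6 of 18 were higher and 3 lower, which turned to 2 higher and 3 lower after scaling. In TGF-beta and YAP signalling 6 of 28 were higher and 0 lower (2 or 3 and 1 after scaling). In Notch signalling 0 of 11 were called. Of the integrin subunits, which hold cells to matrix, 4 of 11 were higher and 1 lower (3 and 1 after scaling). They had itga9 (131 and 101 FPKM against 3.11 to 7.55) and the fibronectin receptor chain itga5 (67.7 and 57.7 FPKM against 10.9 to 19.7) high and itga11a low (0.915 and 0.495 FPKM against 3.31 to 6.46).

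**Figure D4:**
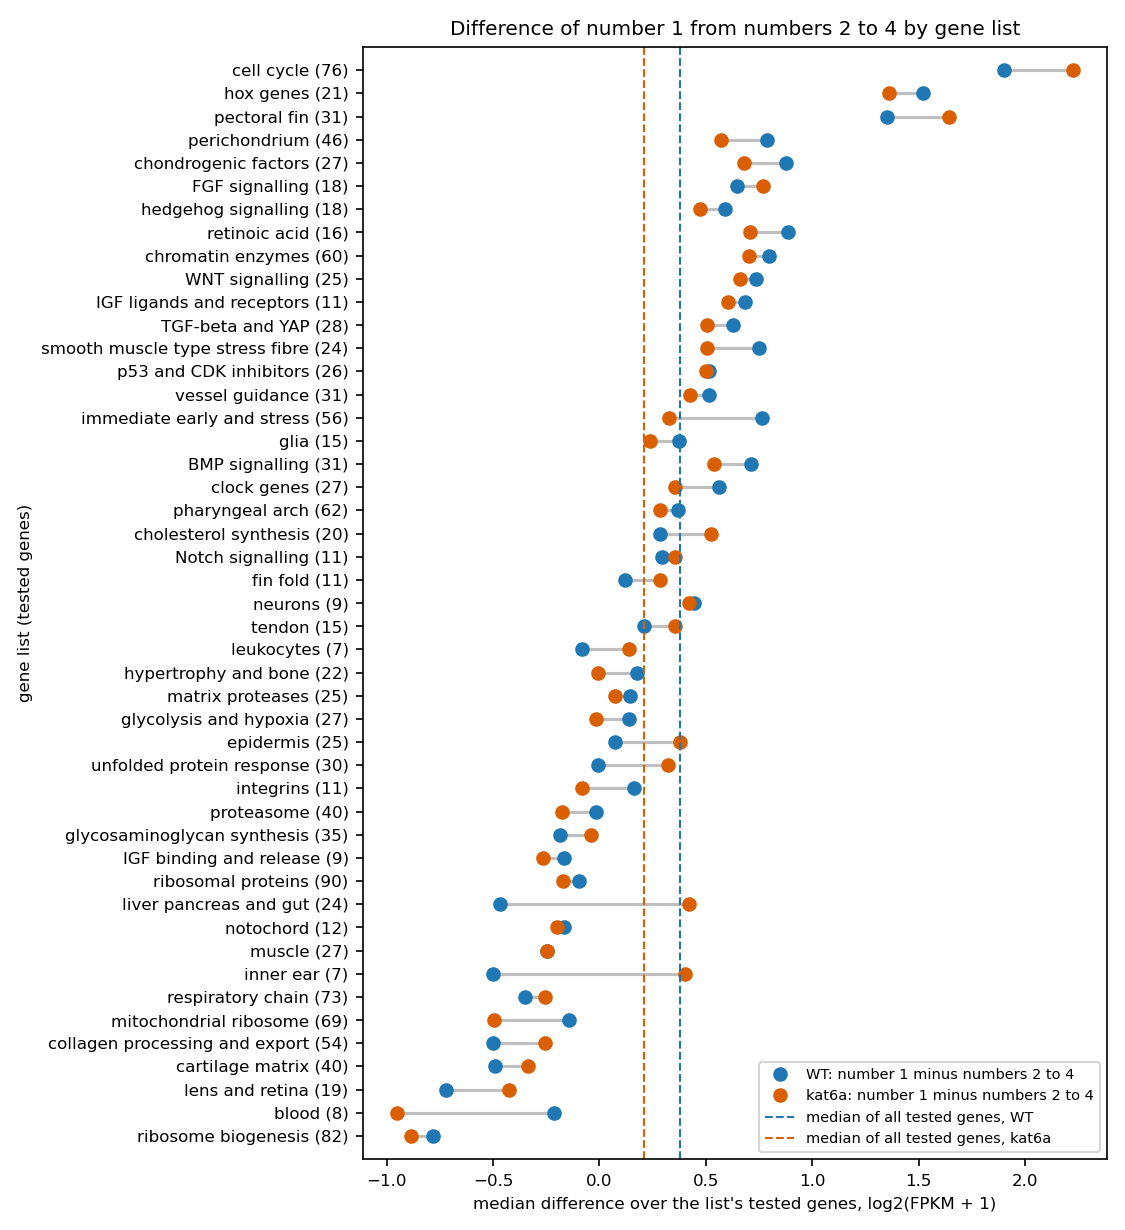
Median difference of number 1 from numbers 2 to 4 over the tested genes of each list, in WT (blue) and kat6a (orange), on the log2(FPKM + 1) scale, with dashed lines at the medians of all tested genes (0.38 in WT and 0.21 in kat6a). Cell cycle, hox and pectoral fin genes lie furthest right in both genotypes and ribosome biogenesis genes furthest left in WT. Of the tested cell cycle, hox and pectoral fin genes, 50 of 76, 14 of 21 and 24 of 31 also reach the filter in numbers 2 to 4. The others passed only through number 1, where they are high, which raises these medians. The pectoral fin and ribosome biogenesis lists were made after the values had been seen.

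Ribosome assembly genes ran opposite to the cell cycle. A list of ribosome biogenesis genes made after the values had been seen (82 tested) had 0 higher and 14 lower. The lower share was 17.1%, beside 2.0% of all tested genes. Of the list 34 lay apart on the low side, beside 6.21% of all tested genes, and its median was -0.85. Under the other scalings 41 to 45 of the list were lower, and 585, 644 or 630 of 11603 to 11667 tested genes. The assembly factor gene wdr75 stood at 3.17 FPKM (WT 1) and 1.19 FPKM (kat6a 1), next to 14.2, 17.7 and 13.6 in WT 2 to 4 and 14.4, 15.8 and 7.99 in kat6a 2 to 4. The gene nop16 was 2.82 FPKM (WT 1) and 1.56 FPKM (kat6a 1), next to 13.7, 12.1 and 18.8 in WT 2 to 4 and 22.9, 17.3 and 4.64 in kat6a 2 to 4. In both, kat6a 4 was the lowest library of numbers 2 to 4 and still above number 1. Also lower were mrto4 (2.45 and 4.85 FPKM against 5.72 to 15.5), tsr1 (5.09 and 3.70 FPKM against 6.09 to 17.8) and the acetyltransferase gene nat10 (1.84 and 0.315 FPKM against 2.90 to 5.67). Cytosolic ribosomal protein genes, also an added list, had 0 of 90 higher and 1 lower, and mitochondrial ribosome genes 0 of 69 higher and 5 lower (9 to 11 after scaling). Some low values of kat6a 1 are exact 0 values: mrpl13, of the mitochondrial ribosome, was 10.1 FPKM (WT 1) and 0 FPKM (kat6a 1), next to 12.6, 13 and 11.9 in WT 2 to 4 and 15.8, 13.6 and 15.3 in kat6a 2 to 4, and ost4, of the glycosylation complex, was 16.6 FPKM (WT 1) and 0 FPKM (kat6a 1), next to 49.4, 38.1 and 48.2 in WT 2 to 4 and 79.2, 58.6 and 37.1 in kat6a 2 to 4. Of the genes called lower, 49 are listed at 0 in WT 1 or kat6a 1.

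Without scaling, few genes of collagen modification and export were called, with 2 of 54 higher, 2 lower and 25 apart on the low side at any size. Over all tested genes 13.4% were higher, 2.0% lower and 6.21% apart on the low side. The median of the collagen modification and export genes was -0.40, and 15 to 22 of them were lower under the other scalings. Over all tested genes 585, 644 or 630 of 11603 to 11667 were lower under those scalings. The lysyl hydroxylase genes plod1a (65.5 and 99.0 FPKM against 146 to 207) and plod3 (87.5 and 112 FPKM against 173 to 236), whose products modify collagen chains, were lower, and the cross-linking enzyme gene loxl1 was higher (367 and 331 FPKM against 50.3 to 114). Respiratory chain genes had 0 of 73 higher, 2 lower and 23 apart on the low side, with a median of -0.31. Under the other scalings 8 to 14 of them were lower, with medians of -0.74 to -0.69. Of the unfolded protein response genes 0 of 30 and of the proteasome genes 0 of 40 were called, against 1 or 2 and 2 or 3 lower after scaling.

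**Figure D5:**
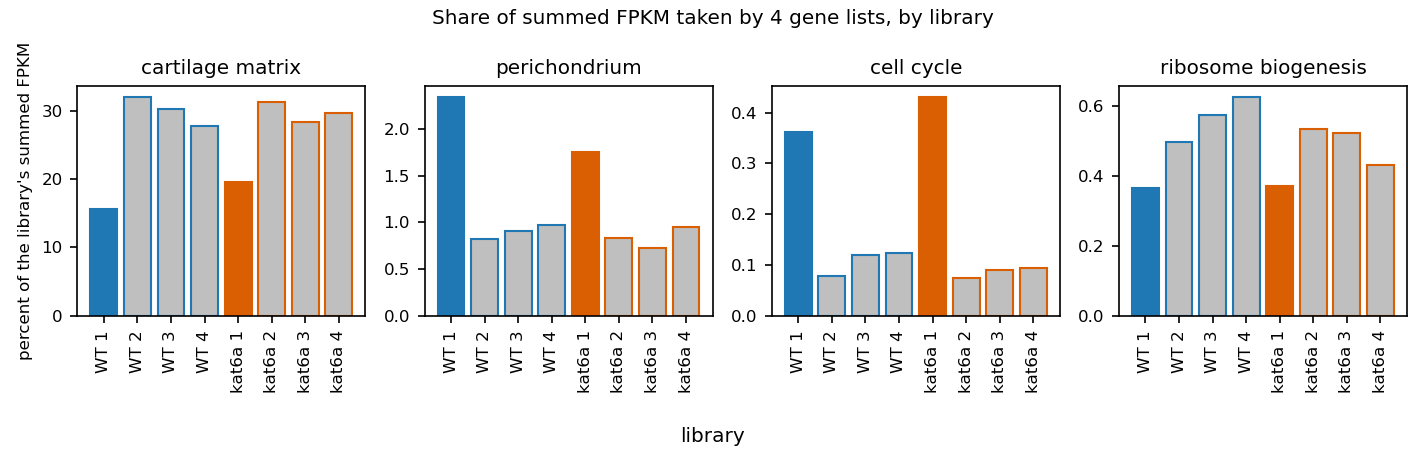
Percent of each library's summed FPKM taken by 4 gene lists, with the libraries numbered 1 in solid colour and numbers 2 to 4 in grey. The cartilage matrix takes 15.7% and 19.5% in WT 1 and kat6a 1 against 27.9% to 32.1%, while the perichondrium takes 2.35% and 1.75% against 0.726% to 0.972%. Most of the perichondrium gap is col8a2, which alone takes 1.24% in WT 1 and 0.861% in kat6a 1 against 0.0418% to 0.0839%.

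Markers of other cell types were read beside these groups. Over all tested genes 13.4% were higher and 2.0% lower. The epidermis list (25 tested) had 5 higher and 1 lower (4 and 2 after scaling), and its sum was 3035 and 2197 FPKM in WT 1 and kat6a 1 against 649 to 1216. That sum rested on krt8 (1470.5 and 999.5 FPKM against 241 to 339) and krt18a.1 (1116 and 844 FPKM against 198 to 290.5), keratins of simple epithelia also found outside skin, and on anxa1a (228 and 183 FPKM against 30.5 to 44.4). The keratin gene krt94 was also higher (20.2 and 12.7 FPKM against 0 to 7.72). Other keratins overlapped: krt4 (54.6 and 41.8 FPKM against 6.57 to 88.9), krt5 (5.29 and 3.62 FPKM against 1.25 to 60.7) and krtt1c19e (6.58 and 0 FPKM against 0.535 to 178), with WT 4 the highest library for all 3. Myelin genes were higher at low levels: mag (7.27 and 6.85 FPKM against 0 to 0.602), mpz (2.23 FPKM (WT 1) and 2.79 FPKM (kat6a 1), and 0 in the other 6) and plp1b (3.24 and 1.47 FPKM against 0 to 0.151). These myelin genes passed the filter on low values only through number 1, where they are high. They were among 5 higher of 15 tested glia genes, of which 12 also reach the filter on the mean of numbers 2 to 4. The gene mbpa overlapped (2.12 and 4.20 FPKM against 0.362 to 4.85) and foxd3 did not pass 0.331 FPKM in any library. Of the neuron list 3 of 9 were higher (1 after scaling), led by tubb2b (232 and 214 FPKM against 47.1 to 85.7), and elavl3 overlapped (1.12 and 0.273 FPKM against 0.374 to 1.49). Of those 9 neuron genes 7 also reach the filter on the mean of numbers 2 to 4. Skeletal muscle had 0 of 27 called, with actc1b at 276 and 269.5 against 227 to 474 FPKM, blood 0 of 8, leukocytes 0 of 7 and endothelium 0 of 4. The leukocyte genes ptprc, mpeg1.1 and lyz are listed at 0 in all 8 libraries, and kdrl and cdh5 of endothelium did not pass 0.484 FPKM. Of the notochord list 3 of 12 were higher and 2 lower (2 or 3 and 5 or 6 after scaling), but tbxta, its defining gene, did not pass 0.449 FPKM. Of the fin fold list 1 of 11 was higher, tbx5a. Of the tendon list 3 of 15 were higher and 2 lower (1 and 3 after scaling), those without scaling all shared with the matrix lists, and scxa overlapped (1.51 and 0.567 FPKM against 0.330 to 3.57). Whether other cells in the sort have a part in the gap between the sets was not tested.

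Genotype was compared where the split does not enter. Within numbers 2 to 4 (3 WT and 3 kat6a libraries), limma with Benjamini-Hochberg adjustment called 0 of 11763 genes (0%) at an adjusted p under 0.05, the smallest adjusted p being 0.115. At an unadjusted p under 0.05 there were 175 higher and 536 lower in kat6a. With the filter on low values taken over those 6 libraries, 4 genes were called, all lower in kat6a: the lens genes mipb and cryba4, the pancreas enzyme gene ela3l and ubiquitin gene ubb (adjusted p = 0.0407 for each). With all 8 libraries and number 1 as a covariate there were also 4, mipb, cryba4 and crybb1 lower and tnxba, which encodes a tenascin of connective tissue, higher (adjusted p = 0.0441 for tnxba). The gene tnxba was higher in kat6a within number 1 (766 against 334 FPKM) and within numbers 2 to 4 (1006 to 1484 against 439 to 590). The main test in numbers 2 to 4 called 0 genes, so it cannot tell the genes that part the sets from the rest. At an unadjusted limma p under 0.05 were 7.43% of the higher genes and 5.53% of the lower, beside 6.04% of all tested genes. The kat6a minus WT difference in numbers 2 to 4 was -0.77 ± 0.13 for fn1b (limma adjusted p = 0.358). It was -0.43 ± 0.42 for hand2 (limma adjusted p = 0.815) and -0.996 ± 0.37 for tbx5a (limma adjusted p = 0.769). It was -0.39 ± 0.21 for col8a2 (limma adjusted p = 0.769) and 0.19 ± 0.32 for igf2a (limma adjusted p = 0.892). For clic2 it was -0.38 ± 0.28 (limma adjusted p = 0.776), and for col2a1a -0.05 ± 0.14 (limma adjusted p = 0.933).

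Whether kat6a deficiency acted differently within number 1 was tested as an interaction in limma over the 8 libraries, in which the single number 1 library of each genotype is assumed to vary like the rest. It called 0 of 11763 genes (0%), with a smallest adjusted p of 0.0549 for ela3l and mrpl13, and 166 higher and 508 lower at an unadjusted p under 0.05. The interaction was 1.26 ± 0.36 for ihha (adjusted p = 0.707) and -0.42 ± 0.26 for fn1b (adjusted p = 0.92). A miss at this size does not show that the genotypes respond alike.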

How the data were processed

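The authors deposited 1 table of FPKM values for 32057 Ensembl gene IDs in 8 libraries, along with a fold (a ratio), p-value and q-value for WT against kat6a, per the file headers. Those comparison columns were not used. The submitters' processing notes list HISAT2, StringTie and the build GRCz10, with no tool versions. Values were analysed as log2(FPKM + 1) with limma 3.58.1 (trend) in R 4.3.3, for genes with a mean of at least 0.5 FPKM over the 8 libraries. FPKM is relative, so scalings of the libraries were alternatives, with another pseudocount, other filters and each library left out.

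The split and its gene lists were chosen with earlier results of these data known, and 4 of 50 lists (pectoral fin, ribosome biogenesis, ribosomal proteins, mitochondrial ribosome) were added after the values were seen. The genes named were the 12 furthest apart in each direction with a mean of at least 5 FPKM over the 8 libraries, leaving out clone and locus names. Added to these were up to 10 from each of 4 main lists and 4 from each other list, plus the markers and kat6a. Other genes named were chosen after their values were seen. Without counts no counting interval can be given.

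Deviations from the genotype mean correlated at 0.589, 0.347, 0.127 and 0.151 within the same-numbered pairs, in order of number. Each genotype mean includes number 1, so the gap of number 1 enters the values of the other numbers too. Over numbers 2 to 4 alone the values were 0.156, -0.00076 and 0.0672. The main genotype test within numbers 2 to 4 has no pairing, because the labels do not say what a number marks. Symbols were found for 28988 IDs. The fits were tested on simulated data.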

Additional observations from a re-analysis of the deposited data

Results flagged for a closer look

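Within each group of 4 libraries, single libraries lay far from the other 3 by Dixon's ratio of gap to range, which chance alone reaches in about 1 of 20 groups. Over 189 named genes WT 1 was the far highest at 96 and the far lowest at 6, and kat6a 1 the far highest at 81 and the far lowest at 6. By contrast WT 4 was the far highest at 3 and kat6a 4 at 1. The named genes were chosen for their gap, so these counts describe the choice as much as the libraries. Among summed levels, WT 1 was far from the other WT libraries for the perichondrium list (7650 FPKM), the cell cycle list (1180 FPKM) and the pharyngeal arch list (1100 FPKM). The library kat6a 1 was far from the other kat6a libraries for the cell cycle list (1340 FPKM) and the cartilage matrix list (60800 FPKM). No cause for these gaps was tested.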

How the results depend on the processing

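Over 16 alternatives, 2970 values of single named genes were set beside the main run, and 452 moved by more than the spread between libraries. Among the named genes called in the main run, 0 values changed direction. Those genes were chosen for their gap, and changes of direction in named genes that were not called were not counted. A minimum difference of 0.5 gave 3031 higher and 603 lower genes. Median-ratio, upper-quartile and quantile scaling gave 821, 772 and 789 higher and 585, 644 and 630 lower, so that 58.4%, 54.5% and 55.6% of called genes were higher against 87.0% unscaled. Leaving out 1 library at a time gave 1534 to 2172 higher and 237 to 577 lower genes. Median differences by list were as follows. For the perichondrium: 1.02 with a pseudocount of 0.1, 0.67 without filter, 0.51, 0.47 and 0.46 under the 3 scalings, 0.55 with the filter over numbers 2 to 4, and 0.55 to 0.93 with 1 library left out. For the cell cycle: 2.06 over its 76 tested genes, 3.32 with the pseudocount and 1.72 with that filter. For the pharyngeal arch: 0.080, 0.038 and 0.011 under the scalings. For the cartilage matrix: -0.57 with the pseudocount, -0.20 without filter, -0.61 with a mean of at least 2 FPKM, -0.83, -0.76 and -0.092 under the scalings, -0.57 with the filter over numbers 2 to 4, and -0.59 to -0.32 with 1 library left out. The filter over numbers 2 to 4 was added after seeing the data.

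For kat6a minus WT in numbers 2 to 4, 0 genes were called in the main test, 4 with a mean of at least 2 FPKM, 4 with the filter over those 6 libraries, 4 with all 8 libraries and number 1 as a covariate, and 0 to 1 with 1 library left out (crygmx without kat6a 4). The interaction gave 7 genes with a pseudocount of 0.1, 2 with a mean of at least 2 FPKM and 894 without filter, of which 666 are listed at 0 in all 6 libraries numbered 2 to 4. A replicate block gave 0 calls in both tests, also with median-ratio scaling in the first. For number 1 against numbers 2 to 4 no paired analysis was possible because number is the contrast. The number of fragments behind each FPKM is unknown, so genes near 0 are the least certain, and 2 libraries give no estimate of how libraries numbered 1 vary within a genotype.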

Other observations

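Further gene groups were read in the same way, beside 13.4% higher and 2.0% lower of all tested genes. The higher genes over all tested genes fell from 1575 to 821, 772 or 789 under the other scalings. Chromatin enzymes had 15 of 60 tested genes higher and 0 lower (5 or 6 higher under the other scalings). Furthest apart were the Polycomb enzyme gene ezh1 (11.3 and 8.999 FPKM against 0.797 to 3.30) and hdac7a (6.76 and 3.87 FPKM against 0 to 1.88). Next came kat6b, the paralog of kat6a (27.8 and 13.7 FPKM against 3.27 to 7.08), and the Polycomb enzyme gene ezh2 (2.02 and 3.77 FPKM against 0 to 0.633). The gene ezh2, at a mean of 0.189 FPKM in numbers 2 to 4, passed the filter only through number 1. Vessel guidance genes had 9 of 31 higher and 1 lower, with sema3d (199.9 and 169 FPKM against 6.25 to 20.3) and sema3ga (10.7 and 8.28 FPKM against 0 to 1.11) high. Stress fibre genes had 8 of 24 higher and 0 lower (5 and 0 after scaling), among them actn1 (20.9 and 24.6 FPKM against 2.19 to 6.03) and myl9a (40.8 and 47.5 FPKM against 11.9 to 15.6). Of the chloride intracellular channels 2 of 3 were higher (1 after scaling), clic4 (113 and 118 FPKM against 42.6 to 81.6) beside clic2. The hyaluronan synthase genes has2 (65.7 and 54.9 FPKM against 13.3 to 25.0) and has3 (131 and 96.5 FPKM against 33.0 to 49.9) were among 4 higher and 2 lower of 35 tested genes of glycosaminoglycan synthesis, a balance that turned to 3 or 4 higher and 8 to 10 lower under the other scalings. Matrix proteases had 5 of 25 higher and 1 lower (2 higher and 1 to 3 lower after scaling), with adam9 (29.1 and 27.0 FPKM against 2.57 to 4.04) high and adamts12 (9.53 and 15.9 FPKM against 22.4 to 34.7) low.

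Metabolic and stress groups were closer to the background of 13.4% higher. Immediate early and stress genes had 7 of 56 higher and 0 lower, p53 and CDK inhibitor genes 4 of 26 and 0, glycolysis and hypoxia genes 2 of 27 and 0, and cholesterol synthesis genes 4 of 20 and 0, with srebf1 (53.1 and 29.8 FPKM against 8.14 to 24.8) and srebf2 (60.05 and 41.4 FPKM against 13.9 to 35.0). After scaling these counts were 1 or 2, 0, 1 or 2, and 1 higher. Clock genes had 0 of 27 higher and 1 lower, the light-sensing gene cry5 (1.83 and 2.98 FPKM against 4.54 to 8.64). The related gene cry-dash was 7.83 FPKM (WT 1) and 0.901 FPKM (kat6a 1), next to 17.2, 21.3 and 21.6 in WT 2 to 4 and 19.5, 20.9 and 12.9 in kat6a 2 to 4. IGF binding and release genes had 0 of 9 higher and 1 lower, igfbp7 (2.97 and 0 FPKM against 7.06 to 11.3). Lens and retina genes had 0 of 19 called, liver, pancreas and gut genes 1 of 24 higher, inner ear genes 2 of 7 higher and 1 lower, and pigment cell genes 0 of 1 called.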
